A study of Mus musculus with 10 samples.

Results

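LSD1 is a histone demethylase that works inside a larger assembly, and the genes described here are those of LSD1 and its partners. They are Kdm1a (LSD1) and its paralog Kdm1b (LSD2), the CoREST scaffolds Rcor1, Rcor2 and Rcor3, the deacetylases Hdac1 and Hdac2, and the subunits Phf21a, Zmym2 and Zmym3. Members were chosen by name, through the Ensembl identifiers that map to these symbols. All 10 were found among the 40620 genes of the count table, and all 10 passed the filter on low counts that left 20808 genes for testing. The RNA came from MC3T3-E1, a clonal pre-osteoblast cell line from mouse calvaria, of which the study's methods name 1 subclone. Cells were taken at 5 stages with 2 replicates each, named A and B. Subconfluent and confluent cells were in growth medium (αMEM with fetal bovine serum). The other 3 stages were cells kept for 24 h, 14 d or 21 d in the differentiation medium, which adds ascorbic acid and β-glycerophosphate. No culture of 14 d or 21 d without these additives was analysed here, so time, cell density and medium change together and cannot be told apart. Nothing in the labels says that A and B were separate cultures, so p-values measure the spread between these samples, which may be technical.

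LSD1 removes methyl groups from lysine 4 of histone H3 and is best known as part of a repressor complex. In that complex a CoREST scaffold protein joins LSD1 to HDAC1 or HDAC2, so that deacetylation and demethylation of the same nucleosome are coupled. Zinc-finger factors such as REST and the Snail family bring the complex to their target genes. The same deacetylases also serve the NuRD and Sin3 complexes, which are described below beside the members.

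Promoter windows of 4 genes are printed, picked with their changes known and not as a test. Each window spans 250 bases before to 50 bases after a start site in RefSeq (GRCm38.p6). Such windows were found for 9 of the 10 members, 13 windows in all, but not for Hdac1. Capitals mark short motifs found on either strand. The motifs searched were the GC box GGGCGG, the CCAAT box CCAAT, the RUNX site TGTGGT, the E-box CACGTG, the cAMP response element TGACGTCA and the E2F sites TTTCGCGC and TTTGGCGC, and no motif contains another.
Rcor2, the scaffold whose RNA rose, at chr19:7267144-7267443 on the plus strand: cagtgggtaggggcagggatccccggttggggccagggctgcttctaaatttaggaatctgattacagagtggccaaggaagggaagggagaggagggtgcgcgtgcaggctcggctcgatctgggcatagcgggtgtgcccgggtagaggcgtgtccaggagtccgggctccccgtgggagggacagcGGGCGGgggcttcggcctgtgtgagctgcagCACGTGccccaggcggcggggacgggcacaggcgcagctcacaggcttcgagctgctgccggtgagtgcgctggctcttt
Rcor1, its paralog, at chr12:111039117-111039416 on the plus strand: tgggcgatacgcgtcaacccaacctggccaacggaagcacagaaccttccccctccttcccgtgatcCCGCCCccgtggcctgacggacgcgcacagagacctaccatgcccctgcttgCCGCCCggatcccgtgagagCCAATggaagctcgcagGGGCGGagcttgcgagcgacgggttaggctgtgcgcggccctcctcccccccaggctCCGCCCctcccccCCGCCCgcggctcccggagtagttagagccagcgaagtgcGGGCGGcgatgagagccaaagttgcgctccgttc
Kdm1a, the catalytic subunit, at chr4:136602674-136602973 on the minus strand: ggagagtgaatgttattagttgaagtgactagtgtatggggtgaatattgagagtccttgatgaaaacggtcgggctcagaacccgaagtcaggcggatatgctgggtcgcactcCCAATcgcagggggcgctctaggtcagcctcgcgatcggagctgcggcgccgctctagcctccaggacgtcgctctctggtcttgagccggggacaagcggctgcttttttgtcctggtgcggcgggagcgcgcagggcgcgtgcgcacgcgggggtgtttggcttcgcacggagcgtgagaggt
Hdac2, a deacetylase whose RNA fell, at chr10:36974294-36974593 on the plus strand: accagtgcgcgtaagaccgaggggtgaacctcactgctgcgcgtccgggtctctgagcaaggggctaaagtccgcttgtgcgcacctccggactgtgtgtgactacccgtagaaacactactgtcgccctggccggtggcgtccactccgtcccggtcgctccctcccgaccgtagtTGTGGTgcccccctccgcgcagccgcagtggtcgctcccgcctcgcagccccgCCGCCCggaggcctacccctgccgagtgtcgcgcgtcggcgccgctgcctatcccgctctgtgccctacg
The Rcor2 window holds 1 GC box and 1 E-box. The Rcor1 window holds 6 GC boxes and 1 CCAAT box. The Kdm1a window has 1 CCAAT box and no GC box, and the Hdac2 window has 1 GC box and 1 RUNX site. The Rcor3 window, which is not printed, holds 7 GC boxes, and Rcor3 also rose. Of the 13 member windows, 9 held the GC box and 4 the CCAAT box. Among the members' windows the E-box was found in Rcor2 alone and the RUNX site in Hdac2 alone. Of 32851 windows of the same length over all genes, 35.7% held the GC box, 37.4% the CCAAT box, 16.8% the RUNX site and 7.15% the E-box. The share of G and C was 33.3% to 81.7% in the member windows and 61.3% to 69.7% in the 4 printed. Its median over all windows was 52.7%, and its part in the motif counts was not tested. No member window held either E2F site or the cAMP response element, which 0.323%, 0.514% and 1.79% of all windows held. A match describes letters in the window and not binding.

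The libraries held 44736156 to 162939333 counts on genes. Levels are given in RPKM, reads scaled to gene length and to the number of reads, as the authors computed them, so that genes of different length can be compared. Differences between stages are log2 fold changes from edgeR on the counts with TMM scaling, and a gene was called at an adjusted p-value under 0.05 over all genes tested. In bulk RNA, fewer cells of a type and less RNA per cell cannot be told apart. The 24 h replicates stood apart from each other, with an SD of 0.69 for the log2 ratio of A to B over 16133 genes, against 0.29 to 0.33 at the other stages. Calls on the members and counts of each gene list that turn on them are given with and without the 24 h samples. The names of the libraries show that subconfluent, confluent and 24 h samples used other index sequences than the 14 d and 21 d samples, so the change from 24 h to 14 d and the change of index set cannot be told apart. Lane numbers do not follow this split, as 6 and 7 each occur in both sets. Flow cells are not named, however. Confluent A and 24 h A share both index and lane number, as do 14 d A and 21 d A. Equal lane numbers thus need not mean the same lane, and whether flow cells followed the split cannot be seen. Confluent against subconfluent, 24 h against confluent and 21 d against 14 d are comparisons within a set. As a check of the label, all 7 osteoblast markers (Runx2, Sp7, Alpl, Col1a1, Bglap, Ibsp and Dmp1) were called over the 5 stages, where 48.9% of all genes were. Their summed level was 5502 to 5722 RPKM in subconfluent cells, 14570 to 15860 at 14 d and 8514 to 9073 at 21 d. Col1a1 made up most of it, at 5549, 9709 and 5094 RPKM at these stages. In 21 d against subconfluent cells 6 of the 7 were higher, where 27.3% of all genes were, and Col1a1 was not called (adjusted p = 0.98). In 21 d against 14 d cells 3 were lower and 1 higher, where 9.72% of all genes were called. Of 5 blood markers, summing to 10.7 to 12.2 RPKM in subconfluent cells and 15.4 to 16.2 at 21 d, Ptprc and Hbb-bs were at 0 in every sample, Hba-a1 was at most at 0.182 RPKM and Cd68 ranged from 0.464 to 0.936, while Lyz2, at 9.81 to 16.1 RPKM, rose in 21 d against subconfluent cells (0.59, adjusted p = 0.017). Of 5 adipocyte markers, summing to 2.83 to 3.25 RPKM in subconfluent cells and 6.51 to 6.80 at 21 d, Adipoq and Plin1 had stage means of at most 0.0309 RPKM and were not tested. All 3 that were tested were called in 21 d against subconfluent cells, where 50.7% of all genes were. Cebpa rose from 2.83 to 6.30 RPKM (1.27, adjusted p = 0.00017). Fabp4 rose from 0.0332 to 0.302 RPKM with 0.995 at 24 h (3.48, adjusted p = 0.014), and Pparg fell from 0.169 to 0.0470 RPKM (-1.67, adjusted p = 0.035). Of the chondrocyte markers, 4 of 5 were tested, with Acan at or near 0. All 4 rose in 14 d against confluent cells, where 16.9% of all genes did. The summed level of the 5 was 89.7 to 98.2 RPKM in confluent cells and 237 to 245 at 14 d. In 21 d against subconfluent cells 3 were higher and 1, Col2a1, lower (-0.93, adjusted p = 0.00077). The sum was 174 to 176 RPKM in subconfluent cells and 112 to 117 at 21 d. The part of these marker changes in the results below was not tested.

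Rcor2 was the member that changed most, from 3.62 RPKM in subconfluent cells, below Rcor1, to the highest level of all 10 members at 14 d and 21 d. Kdm1a, Hdac1 and Hdac2 fell over the same course, Rcor3 rose, and Rcor1 showed no change that passed the test. Over the 5 stages, 7 of the 10 members differed in the F test, where 48.9% of all genes tested did. The exceptions were Kdm1b (adjusted p = 0.40), Rcor1 (adjusted p = 0.56) and Zmym3 (adjusted p = 0.39). Without the 24 h samples, 9 of the 10 members differed over the 4 stages left, where 70.6% of all genes did.

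Kdm1a, on chromosome 4 (136550540 to 136602723, minus strand), encodes the demethylase of the complex. Its level was 17.4 and 17.7 RPKM in the subconfluent replicates A and B, 18.2 and 17.6 in the confluent ones, 16.0 and 16.2 at 24 h, 12.8 and 12.6 at 14 d, and 11.9 and 11.7 at 21 d. Every sample of 14 d and 21 d lay below every earlier sample, and no pair of replicates differed by as much as the step from 24 h to 14 d. That step had a log2 fold change of -0.22 (SE 0.07) and did not pass the test (adjusted p = 0.073), although it did with 24 h A left out (adjusted p = 0.049) or 24 h B left out (adjusted p = 0.0040). The fall was called over longer spans, at -0.28 (SE 0.07, adjusted p = 0.022) in 14 d against confluent cells and -0.46 (SE 0.07, adjusted p = 0.0013) in 21 d against subconfluent cells. The former was lost with either confluent, 14 d or 21 d sample left out (adjusted p = 0.051 to 0.11). Within an index set, Kdm1a was at -0.18 (SE 0.07, adjusted p = 0.17) in 21 d against 14 d, and at -0.18 (SE 0.04, adjusted p = 0.026) with the 24 h samples left out of the fit.

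Kdm1b, the paralog that acts on the same lysine but lacks the part that binds CoREST, lies on chromosome 13 (47043499 to 47085279, plus strand). It was at 3.37 and 2.44 RPKM in subconfluent, 2.61 and 2.98 in confluent, 1.81 and 3.88 at 24 h, 3.13 and 2.84 at 14 d, and 3.69 and 4.06 at 21 d. The widest gap between replicates was at 24 h, where A was the lowest of all 10 samples and B the second highest. Both 21 d samples were above both subconfluent samples, but the log2 fold change of 0.53 (SE 0.30) did not pass the test (adjusted p = 0.19). Without the 24 h samples it was 0.52 (SE 0.15, adjusted p = 0.022). On the opposite strand, 505 of its exonic bases also belong to Dek, which had a mean count of 11980 against 1020 for Kdm1b. Dek fell (-1.73 in 21 d against subconfluent cells on the log2 scale), and the counting is not stated to use strand.

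The CoREST scaffolds hold LSD1 on nucleosomes, and their 3 genes moved apart. Rcor2 lies on chromosome 19 (7267325 to 7275225, plus strand). It was at 3.75 and 3.48 RPKM in subconfluent cells, 13.9 and 14.3 in confluent cells, 19.9 and 20.8 at 24 h, 68.7 and 70.1 at 14 d, and 40.9 and 40.1 at 21 d. No stage overlapped another, and the order was subconfluent, confluent, 24 h, 21 d, 14 d. Rcor2 was the only member called in every one of the 6 comparisons. It rose in confluent against subconfluent cells by a log2 fold change of 1.94 (SE 0.08, adjusted p = 0.00028), in the same medium and the same index set. It rose again in 24 h against confluent cells (0.61, SE 0.08, adjusted p = 0.0065) and in 14 d against 24 h cells (1.90, SE 0.08, adjusted p = 4.2e-05). From 14 d to 21 d it fell by 0.85 on the log2 scale (SE 0.08, adjusted p = 0.00085). The 21 d level was still above the subconfluent one, with a log2 fold change of 3.60 (SE 0.08, adjusted p = 1.6e-06), a change whose size ranked 1156 of the 20808 genes tested. The rise at 24 h was not called with either confluent sample left out (adjusted p = 0.064 and 0.054). With only the confluent and 24 h samples fitted, 0 of 19562 genes were called by edgeR and 1824 had an unadjusted p under 0.05, so that fit could call no member.

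Of the 4 protein-coding genes nearest to Rcor2, looked at after its values were seen, none was called higher in 21 d against subconfluent cells. Mark2, whose 3′ end lies 171 bases away on the opposite strand, was at 12.8, 12.6, 10.6, 10.3 and 11.9 RPKM over the 5 stages in order, and its log2 fold change in 21 d against subconfluent cells was 0.01 (adjusted p = 0.92). Naa40, on the other side, fell by 0.49 on the log2 scale (adjusted p = 0.0031), while Spindoc and Cox8a were at 0.18 (adjusted p = 0.23) and -0.04 (adjusted p = 0.89).

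Rcor1, the first CoREST scaffold described with LSD1, lies on chromosome 12 (111039351 to 111115901, plus strand). It was at 9.58 and 9.43 RPKM in subconfluent, 10.7 and 9.31 in confluent, 6.01 and 9.91 at 24 h, 7.92 and 7.19 at 14 d, and 7.62 and 7.33 at 21 d. All 4 samples of 14 d and 21 d were below the 4 samples of subconfluent and confluent cells, while 24 h A was the lowest sample and 24 h B lay among the earlier ones. Its log2 fold change in 21 d against subconfluent cells was -0.23 (SE 0.18, adjusted p = 0.34), and without the 24 h samples it was -0.24 (SE 0.08, adjusted p = 0.028). The call on Rcor1 turned on whether the 24 h libraries were in the fit.

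Rcor3, on chromosome 1 (192098546 to 192138062, minus strand), rose by less than Rcor2. It was at 6.74 and 6.56 RPKM in subconfluent, 8.08 and 7.24 in confluent, 8.30 and 9.93 at 24 h, 9.58 and 9.92 at 14 d, and 13.3 and 11.9 at 21 d. Of successive stages, only 24 h and 14 d overlapped. Rcor3 was called in 14 d against confluent cells (0.57, SE 0.10, adjusted p = 0.0058) and in 21 d against subconfluent cells (1.04, SE 0.10, adjusted p = 0.00017), and no single step passed the test with all samples fitted. From 14 d to 21 d, where Rcor2 fell, Rcor3 had a log2 fold change of 0.29 (SE 0.10, adjusted p = 0.13), and without the 24 h samples this step was called (0.30, SE 0.08, adjusted p = 0.040). With library size alone as the scale the rise in 14 d against confluent cells was 0.34 (adjusted p = 0.12). Exons of Rcor3 overlap 3 annotated genes on the opposite strand, of which Gm10516 had a mean count of 219 against 1298 for Rcor3 and rose by 1.30 on the log2 scale (21 d against subconfluent). The length behind its RPKM is 2145 bases, where GENCODE vM21 gives 13622 exonic bases, so its level relative to other genes depends on the annotation. Per exonic base of GENCODE it would be at 1.05 RPKM in subconfluent cells and 1.98 at 21 d, the lowest of the members at every stage and below Rcor2 in subconfluent cells (3.58).

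**Figure D1:**
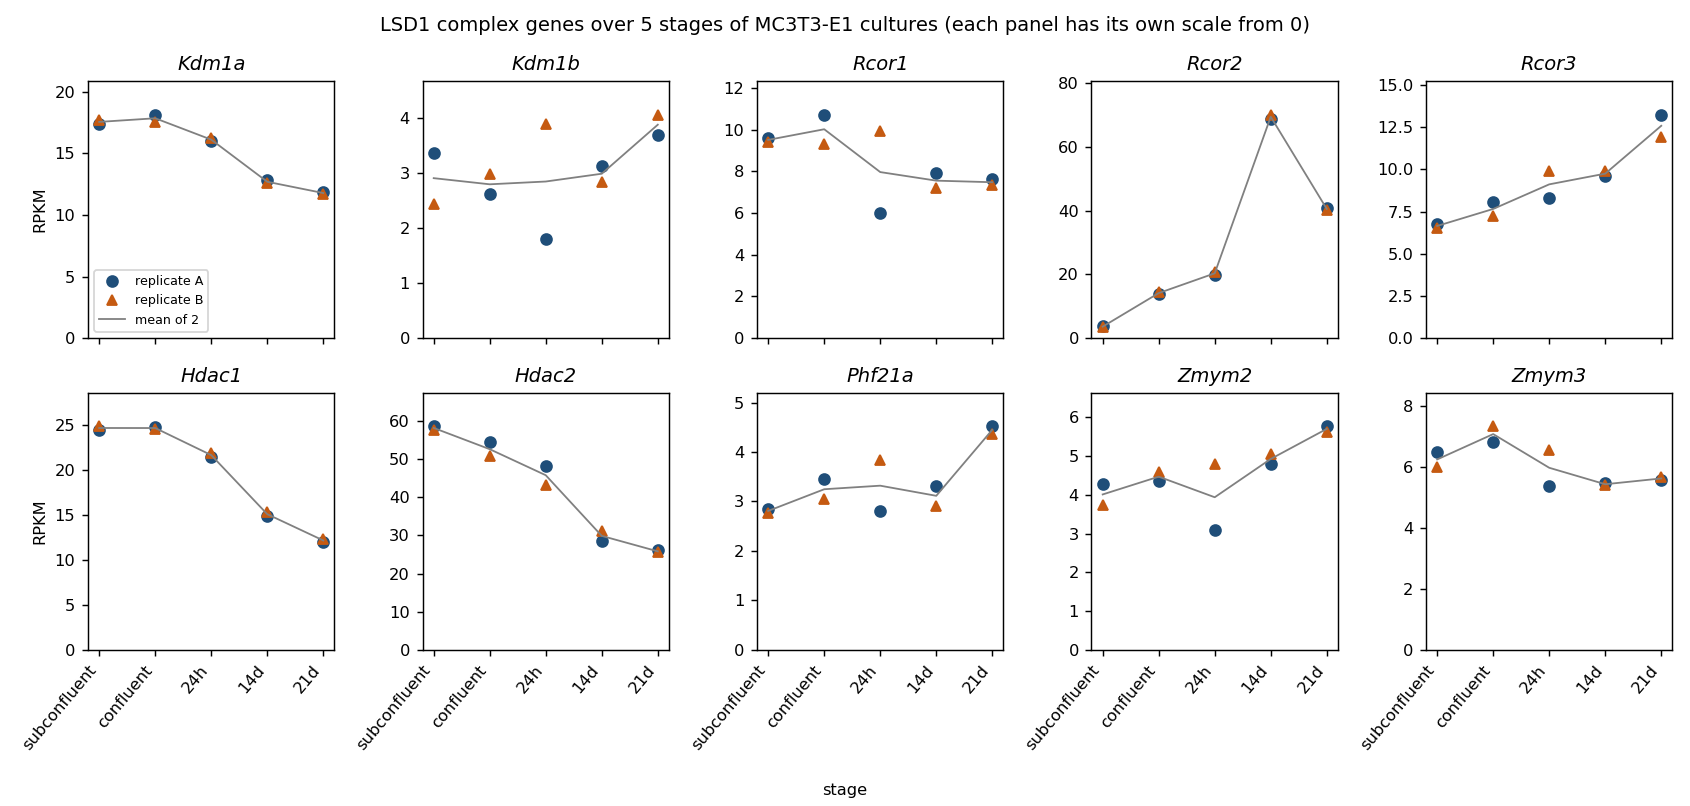
Level of each of the 10 genes (RPKM, own axis from 0 in each panel) against stage. Points are single samples, circles for replicate A and triangles for replicate B, and the line joins the means of 2. Rcor2 peaked at 14 d at 68.7 and 70.1 RPKM, Hdac1 and Hdac2 were lowest at 21 d, and replicates of Kdm1b and Rcor1 lay far apart at 24 h.

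The deacetylase genes fell together. Hdac2, on chromosome 10 (36974544 to 37001889, plus strand), had the highest level of the members before 14 d. It was at 58.7 and 57.8 RPKM in subconfluent, 54.5 and 50.8 in confluent, 48.3 and 43.3 at 24 h, 28.6 and 31.2 at 14 d, and 26.1 and 25.5 at 21 d. In RPKM no stage overlapped the next. In CPM with TMM scaling, confluent (152.5 and 142.7) and 24 h samples (149.5 and 124.7) did overlap. The largest single step was from 24 h to 14 d (-0.49, SE 0.11, adjusted p = 0.024), and it was not called in 5 of 21 alternative settings. The fall from subconfluent cells to 21 d was -1.06 (SE 0.11, adjusted p = 0.00021). In 21 d against 14 d cells Hdac2 was at -0.29 (SE 0.11, adjusted p = 0.17), and at -0.28 (SE 0.07, adjusted p = 0.025) without the 24 h samples. Hdac2 was 1 of the 3 members past 2-fold in 21 d against subconfluent cells, with Rcor2 and Rcor3.

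Hdac1, on chromosome 4 (129516104 to 129542713, minus strand), followed the same course at a lower level. It was at 24.5 and 24.9 RPKM in subconfluent, 24.8 and 24.5 in confluent, 21.4 and 21.9 at 24 h, 14.9 and 15.3 at 14 d, and 12.0 and 12.4 at 21 d. Subconfluent and confluent samples overlapped, and every later stage lay below the one before it. Hdac1 fell in 14 d against 24 h cells (-0.40, SE 0.07, adjusted p = 0.012) and again in 21 d against 14 d cells (-0.38, SE 0.07, adjusted p = 0.017), the latter within one index set. The former was lost with either 14 d sample left out (adjusted p = 0.094 and 0.071) or only the groups compared (adjusted p = 0.20). The latter was lost with library size alone (-0.30, adjusted p = 0.079), with no filter (adjusted p = 0.093) and with either subconfluent, 14 d or 21 d sample left out (adjusted p = 0.072 to 0.16). Over the whole course the log2 fold change was -0.90 (SE 0.07, adjusted p = 5.7e-05). Of the 51-base stretches of its transcripts, the length of 1 read, 35.2% also occur in other genes, most of them in the processed pseudogene Gm10093. Gm10093 was listed at 47.2 RPKM in subconfluent cells and 23.3 at 21 d, with the log2 fold change of -0.91 (adjusted p = 5.4e-05) close to that of Hdac1, and how reads that fit both were counted is not given in the sources used here. No 51-base stretch of Kdm1a, Rcor2, Hdac2, Phf21a or Zmym3 occurred in another gene.

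Of the 3 subunits that read or bind chromatin, 2 rose. Phf21a (BHC80), whose PHD finger binds lysine 4 of histone H3 when it is unmethylated, lies on chromosome 2 (92093117 to 92364666, plus strand). It was at 2.85 and 2.76 RPKM in subconfluent, 3.44 and 3.05 in confluent, 2.80 and 3.83 at 24 h, 3.31 and 2.91 at 14 d, and 4.52 and 4.37 at 21 d. Both 21 d samples were above all the others, and the 3 middle stages overlapped. Its log2 fold change was 0.78 (SE 0.13, adjusted p = 0.0020) in 21 d against subconfluent cells and 0.44 (SE 0.13, adjusted p = 0.081) in 21 d against 14 d cells, the latter 0.45 (SE 0.08, adjusted p = 0.0086) without the 24 h samples.

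Zmym2 and Zmym3 encode MYM-type zinc-finger proteins found with LSD1, CoREST and the deacetylases. Zmym2, on chromosome 14 (56886653 to 56962701, plus strand), was at 4.28 and 3.74 RPKM in subconfluent, 4.35 and 4.59 in confluent, 3.09 and 4.79 at 24 h, 4.80 and 5.05 at 14 d, and 5.78 and 5.63 at 21 d. The 21 d samples were the highest, and 24 h A was again the lowest. Zmym2 rose in 21 d against subconfluent cells by 0.62 (SE 0.17, adjusted p = 0.017). This rise was not called in 6 of 22 alternative settings, among them library size alone as the scale (0.47, adjusted p = 0.12). Its F test over the 5 stages (adjusted p = 0.042) did not pass with the replicate block (adjusted p = 0.062) or either limma fit (adjusted p = 0.19). In 14 d against confluent cells it was called higher without the 24 h samples (0.34, SE 0.08, adjusted p = 0.010). Zmym3, on the X chromosome (101404384 to 101420849, minus strand), was at 6.48 and 6.0 RPKM in subconfluent, 6.81 and 7.33 in confluent, 5.37 and 6.56 at 24 h, 5.45 and 5.40 at 14 d, and 5.56 and 5.67 at 21 d. Its stages lay close together, and the log2 fold change in 21 d against subconfluent cells was -0.04 (SE 0.09, adjusted p = 0.78). In 14 d against confluent cells it was called lower without the 24 h samples (-0.19, SE 0.06, adjusted p = 0.038).

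Counted by comparison, 1 of the 10 members (Rcor2) was called in confluent against subconfluent cells, where 3.28% of all genes were, and the same 1 in 24 h against confluent cells, where 5.15% were. In 14 d against 24 h cells 3 members were called, 1 higher and 2 lower, against 17.3% of all genes (9.08% higher and 8.21% lower), and in 21 d against 14 d cells 2 were called, 1 of them Rcor2 and 1 Hdac1, both lower, against 9.72% (5.95% lower). In 14 d against confluent cells 5 were called, 2 higher and 3 lower, against 32.1% of all genes (16.9% higher and 15.3% lower). In 21 d against subconfluent cells 7 were called, 4 higher (Rcor2, Rcor3, Phf21a and Zmym2) and 3 lower (Kdm1a, Hdac1 and Hdac2), against 50.7% (27.3% higher and 23.5% lower). Past 2-fold there were 3 of the 10, against 27.6% of all genes. The median log2 fold change of the members in that comparison was 0.25, beside 0.04 over all genes. Without the 24 h samples 7 members were called in 14 d against confluent, 6 in 21 d against 14 d and 9 in 21 d against subconfluent cells, and the share of all genes called rose as well, to 52.7%, 26.6% and 66.1%. Leaving out 24 h B alone gave 7 in 14 d against 24 h, 4 in 24 h against confluent and 6 in 21 d against 14 d cells, where 46.6%, 39.9% and 24.1% of all genes were called, and leaving out 24 h A gave 5 in the last of these (23.9%). With 1 sample left at 24 h, that sample is assumed to vary like the other stages. Leaving out either 14 d sample gave fewer members in 14 d against 24 h, 14 d against confluent and 21 d against 14 d cells. With either confluent sample left out Rcor2 was no longer called in 24 h against confluent cells. Fewer members were also called in 21 d against 14 d cells with either subconfluent or either 21 d sample left out. In each of these fits the share of all genes called in that comparison was also below the share with all samples.

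**Figure D2:**
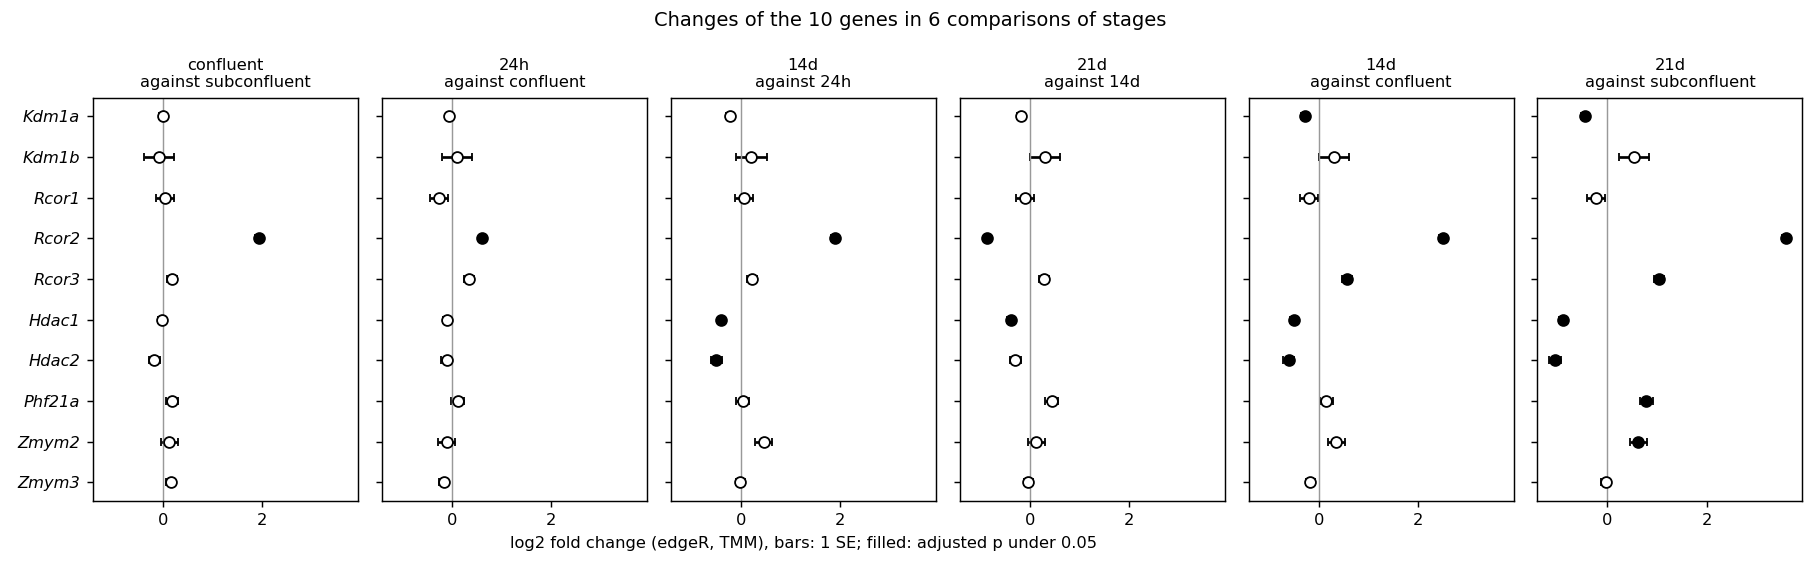
Log2 fold change of each gene (horizontal axis) in the 6 comparisons, with bars of 1 SE and filled points for an adjusted p-value under 0.05. Rcor2 is filled in all 6 panels and lies at 1.94, 0.61, 1.90, -0.85, 2.51 and 3.60 from left to right.

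The ratio of a partner to Kdm1a within a sample does not depend on how libraries are scaled. Of the 9 ratios of RPKM, 6 differed among the stages at an exact permutation p under 0.05. The permutation ran over the 945 ways to put 10 samples in 5 pairs, without adjustment over the ratios. All 9 ratios have Kdm1a as divisor, and Kdm1a itself fell. The test was not run on ratios of other genes, so no share of all genes stands beside the count. In the F test on counts 48.9% of all genes differed. The Rcor2 to Kdm1a ratio was 0.196 to 0.216 in subconfluent cells, 0.767 to 0.817 in confluent cells, 1.24 to 1.28 at 24 h, 5.37 to 5.57 at 14 d and 3.43 to 3.44 at 21 d (exact p = 0.0011, the smallest this design can give). Rcor2 RNA thus passed from below the level of Kdm1a to above it between confluence and 24 h. The Rcor3 ratio was 0.379 ± 0.0128 (SD) in subconfluent cells and 1.07 ± 0.0660 at 21 d, and its exact p was also 0.0011.

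Both deacetylases fell relative to Kdm1a. The Hdac1 ratio was 1.41 ± 0.00279 (SD) in subconfluent cells, 1.34 ± 0.0120 at 24 h, 1.19 ± 0.0390 at 14 d and 1.03 ± 0.0362 at 21 d (exact p = 0.0011). The Hdac2 ratio went from 3.32 ± 0.0853 to 2.19 ± 0.00654 (exact p = 0.0053). The Phf21a ratio rose from 0.160 to 0.378 (exact p = 0.012) and the Zmym2 ratio from 0.229 to 0.484 (exact p = 0.025). The ratios of Kdm1b (exact p = 0.15), Rcor1 (exact p = 0.54) and Zmym3 (exact p = 0.062) did not pass. Without the 24 h samples 8 of the 9 passed, while the share of all genes that differed in the F test on counts rose to 70.6%. The Rcor1 ratio had means of 0.542, 0.561, 0.494, 0.595 and 0.635 over the stages in order, with 0.375 and 0.612 in the 24 h replicates A and B.

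**Figure D3:**
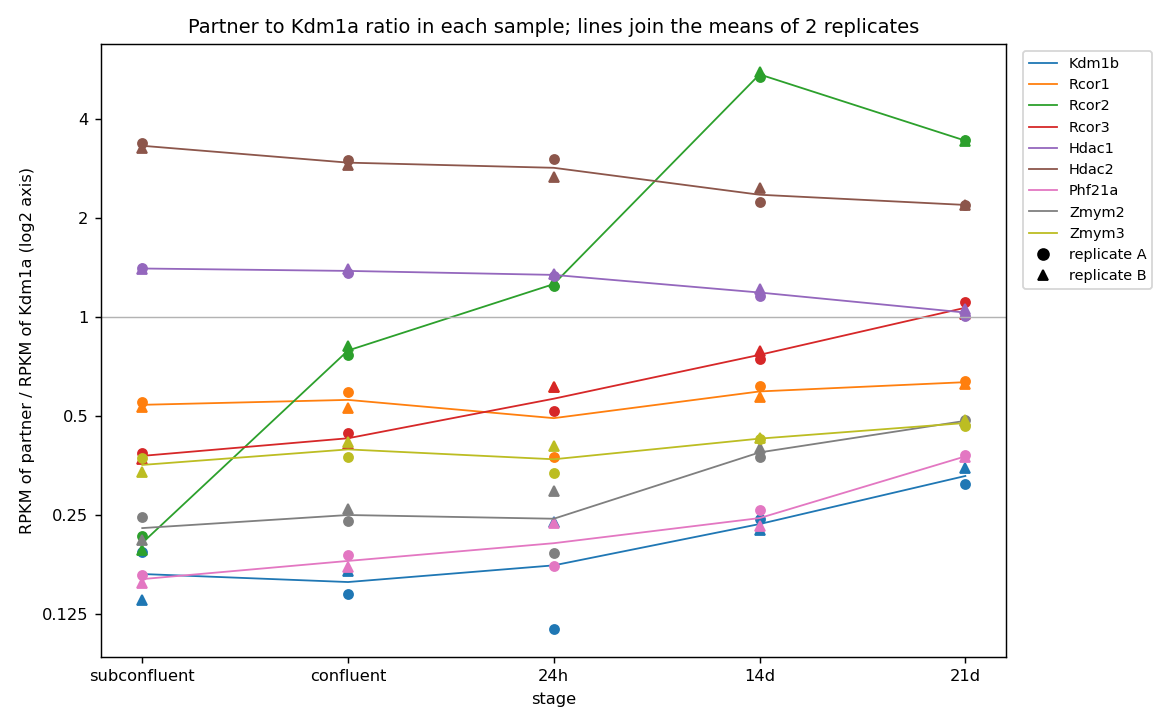
RPKM of each partner divided by that of Kdm1a in the same sample (log2 axis) against stage, with circles for replicate A, triangles for B and lines through the means. The Rcor2 line crosses 1 between confluent cells (0.792) and 24 h (1.26) and ends above the Hdac2 line (3.44 against 2.19 at 21 d).

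As shares of the summed RPKM of the 3 scaffolds, Rcor2 made up 18.3% ± 0.561 (SD, n = 2) in subconfluent cells, 44.5% ± 2.74 in confluent cells, 54.6% ± 4.94 at 24 h, 80.0% ± 0.483 at 14 d and 66.9% ± 0.930 at 21 d. Rcor1 had 48.1% ± 0.497 in subconfluent cells and 8.71% ± 0.667 at 14 d. Rcor3 had 33.6% ± 0.0642 and 11.3% ± 0.184 at the same stages. Per exonic base of GENCODE, Rcor2 had 25.3% in subconfluent cells, 88.3% at 14 d and 80.9% at 21 d, and Rcor3 7.42%, 1.98% and 4.0%. The leading scaffold by level was Rcor1 in subconfluent cells and Rcor2 from confluence on. The 3 scaffolds together were at 19.8 ± 0.431 RPKM in subconfluent cells and 86.7 ± 0.688 at 14 d. By the deposited lengths their sum thus went from 1.13 to 6.83 times the level of Kdm1a and was 5.14 times at 21 d. Per exonic base of GENCODE, Rcor1, Rcor2 and Rcor3 would be at 9.49, 3.58 and 1.05 RPKM in subconfluent cells, beside 15.9 for Kdm1a. Whether the sum began above Kdm1a therefore depends on the annotation. Hdac1 kept a share of 29.8% to 33.6% of the summed deacetylase RPKM in the stage means, a range of the size of the replicate gap at 24 h (30.7% and 33.6%). The sum of Hdac1 and Hdac2 was 82.9 ± 0.388 RPKM in subconfluent cells and 38.0 ± 0.144 at 21 d. Zmym2 went from 39.1% ± 0.983 to 50.4% ± 0.782 of the sum with Zmym3.

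**Figure D4:**
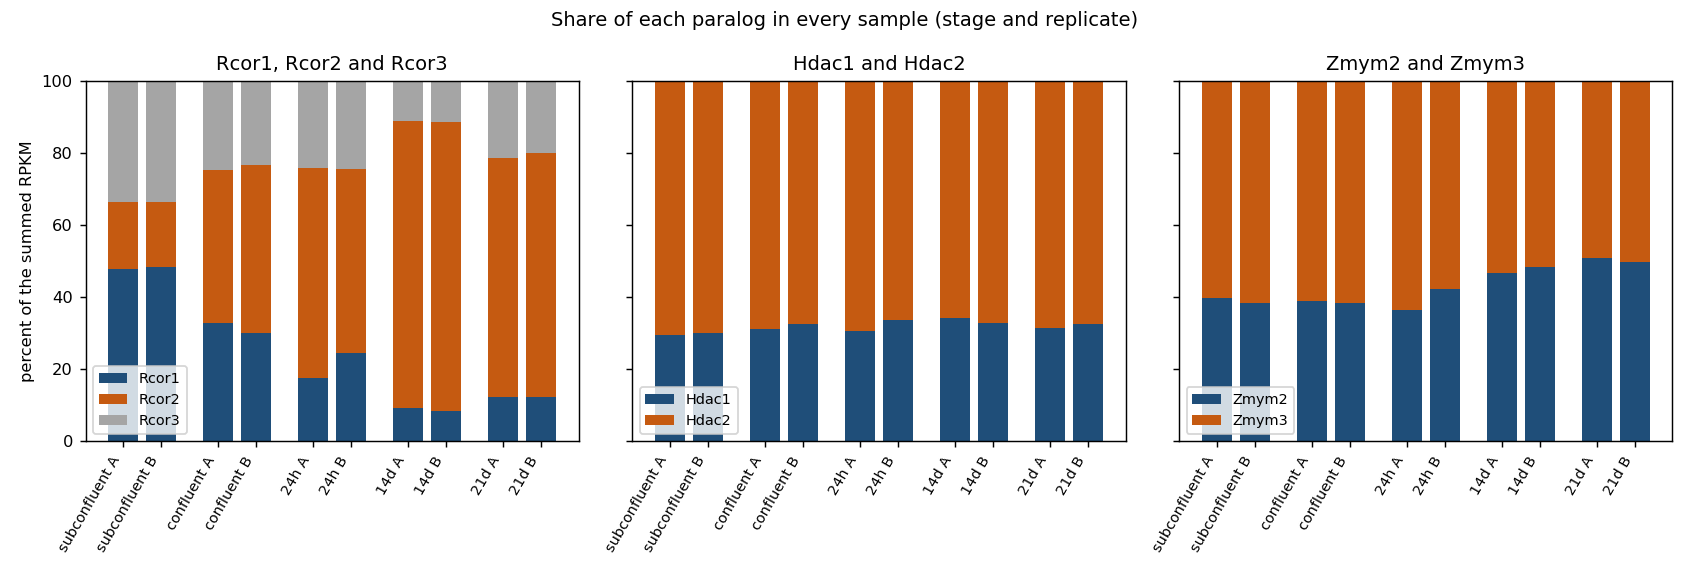
Percent of the summed RPKM taken by each paralog in every sample, as stacked bars from 0 to 100. Rcor2 takes 17.9% and 18.7% of the scaffold bars in the subconfluent samples and 79.7% and 80.4% in the 14 d samples, while Hdac1 takes 29.4% to 34.2% of the deacetylase bars.

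The order of the levels changed with the scaffolds. In subconfluent and confluent cells the first 3 places were Hdac2, Hdac1 and Kdm1a, with no overlap between neighbours. At 14 d they were Rcor2, Hdac2 and Hdac1, followed by Kdm1a at 12.7 ± 0.147 RPKM (SD, n = 2). At 21 d Rcor3 (11.9 to 13.3 RPKM) and Hdac1 (12.0 to 12.4 RPKM) were neighbours with overlapping values, as were Zmym2 and Zmym3. At 24 h the values of Rcor3, Rcor1 and Zmym3 overlapped from one to the next, as did those of Zmym2, Phf21a and Kdm1b. Kdm1b or Phf21a was last at every stage, and Rcor3 was last per exonic base of GENCODE.

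Over the 10 samples, the profile of Kdm1a was most like those of its deacetylase partners among the members. Pearson's r of log2 CPM with Kdm1a was 0.99 for Hdac1, rank 12 of 11991 genes, and 0.98 for Hdac2, rank 183. It was 0.36 for Zmym3, 0.34 for Rcor1, -0.75 for Rcor2 and Kdm1b, -0.89 for Phf21a, -0.90 for Zmym2 and -0.92 for Rcor3. The 5 genes with the highest r were Rasl2-9, Gm7125, Rbmxl1, Fbxo17 and Gm10282, each with an r of 0.995. The samples share 5 stages and 2 index sets, so these are descriptions, and Gm7125 and Gm10282 are predicted genes whose reads may be shared with near-identical copies.

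Other subunits reported with LSD1 moved in both directions. Of 8, 2 were higher and 3 lower in 21 d against subconfluent cells, and the median log2 fold change was -0.34, against 0.04 over all genes tested, of which 50.7% were called. Leaving out the 24 h samples gave 3 higher and 4 lower, where 66.1% of all genes were called. Zfp217, a zinc-finger partner, went from 2.04 to 3.26 RPKM (log2 fold change 0.79, adjusted p = 0.0070). Gse1, a subunit of the LSD1-CoREST complex, went from 10.1 to 4.80 RPKM (-0.96, adjusted p = 7.5e-05), and the corepressor Ctbp2 from 7.25 to 5.06 RPKM (-0.40, adjusted p = 0.022). With upper-quartile scaling, or with either 21 d sample or subconfluent A left out, 2 were higher and 1 lower, and without subconfluent B 1 was higher and 2 lower. Ctbp2 was not called with upper-quartile scaling (adjusted p = 0.086).

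Of the 10 factors listed as recruiters of LSD1, 6 passed the filter. In 21 d against subconfluent cells 1 was higher and 1 lower, where 27.3% of all genes were higher and 23.5% lower. Tal1 was higher but at 0.0617 and 0.157 RPKM only (log2 fold change 1.45, adjusted p = 0.0087), and Snai2, a Snail-family repressor, fell from 24.5 to 17.6 RPKM (-0.36, adjusted p = 0.0047). With either subconfluent sample left out, 1 gene of this list was called, lower at 21 d. Snai1, a relative of Snai2, was at 138, 88.4, 123, 113 and 140 RPKM over the stages in order and rose in 14 d against confluent cells (0.57, adjusted p = 0.0030). Hic1 went from 3.17 to 1.42 RPKM there (-0.94, adjusted p = 0.0077). Rest, which brings CoREST to neuronal genes, was at 8.13 RPKM in subconfluent cells and 7.09 at 21 d (-0.08, adjusted p = 0.54).

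Of 14 REST target genes, 7 passed the filter. None was called by edgeR in 21 d against subconfluent cells, where 50.7% of all genes were (0 by DESeq2, 1 at an unadjusted p under 0.05). In the fit without the 24 h samples, where 66.1% of all genes were called, 2 were called lower. They were Tubb3 (-0.31, adjusted p = 0.013) and Vgf (-1.44, adjusted p = 0.026). The same 2 were called lower with either 24 h sample left out, library size alone, both limma fits and only the groups compared, where L1cam was also called higher (1.67, adjusted p = 0.030). Stmn2 and Chga were at 0 in every sample. Tubb3, a neuronal tubulin, was the highest of the list, at 12.0, 11.8, 16.0, 25.2 and 8.99 RPKM over the stages, and it rose in 14 d against confluent cells (1.31, adjusted p = 0.00063). Vgf was called there too (-2.08, adjusted p = 0.042) at stage means of 0.127 RPKM or less. It was not called in 13 of 20 alternative settings, among them DESeq2 (adjusted p = 0.13). Unc13a, called over the 5 stages (adjusted p = 0.033), ranged from 0.286 to 0.629 RPKM in the stage means.

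The NuRD and Sin3 complexes share Hdac1 and Hdac2. Of 11 NuRD genes, 6 were lower and 1 higher in 21 d against subconfluent cells, where 23.5% of all genes were lower and 27.3% higher, and their median was -0.38. The 1 higher, the methyl-DNA-binding Mbd2 (0.20, adjusted p = 0.049), was not called under most alternatives, among them library size alone, no filter, both limma fits and any subconfluent, confluent, 14 d or 21 d sample left out. With the 24 h samples left out 7 were lower and 1 higher, where 66.1% of all genes were called. Gatad2a fell from 24.4 to 10.3 RPKM (-1.12, adjusted p = 2.7e-05), the histone-binding Rbbp4 from 22.6 to 11.1 (-0.91, adjusted p = 5.3e-05) and Rbbp7 from 57.3 to 26.1 (-1.02, adjusted p = 0.00019), and the remodeller Chd3 from 22.5 to 7.47 (-1.47, adjusted p = 0.00076). The remodeller Chd4 was at 51.3 and 54.4 RPKM (0.20, adjusted p = 0.31). Of 9 Sin3 genes 3 were lower and none higher, a smaller share called than the 50.7% of all genes, with a median of -0.30: Sin3b (-0.67, adjusted p = 0.015), Sap18 (-0.66, adjusted p = 0.012) and Sap130 (-0.73, adjusted p = 0.017). With either 21 d sample or subconfluent A left out no gene of this list was called, and without subconfluent B 1 was. When the 24 h samples were left out, 5 were lower and 1 higher, in the fit where 66.1% of all genes were called.

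Genes of the cell cycle fell between subconfluent cells and 21 d, as did Kdm1a and the deacetylases, but the sizes of the steps differed. All 12 were lower in 21 d against subconfluent cells, where 23.5% of all genes were, with a median of -3.29. In 21 d against 14 d cells, within one index set, all 12 were lower as well, where 5.95% of all genes were. The list median there was -1.93, beside -0.18 for Kdm1a, -0.38 for Hdac1 and -0.29 for Hdac2. The summed level of the 12 was 940 to 947 RPKM in subconfluent, 693 to 741 in confluent, 468 to 507 at 24 h, 313 to 328 at 14 d and 97.7 to 118 at 21 d. The helicase subunit Mcm5 had a log2 fold change of -4.12 (adjusted p = 2.5e-06), the ribonucleotide reductase subunit Rrm2 -3.90, the kinase Plk1 -3.54 and the cyclin Ccnb1 -3.38. The part of these changes in those of Kdm1a, Hdac1 and Hdac2 was not tested.

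**Figure D5:**
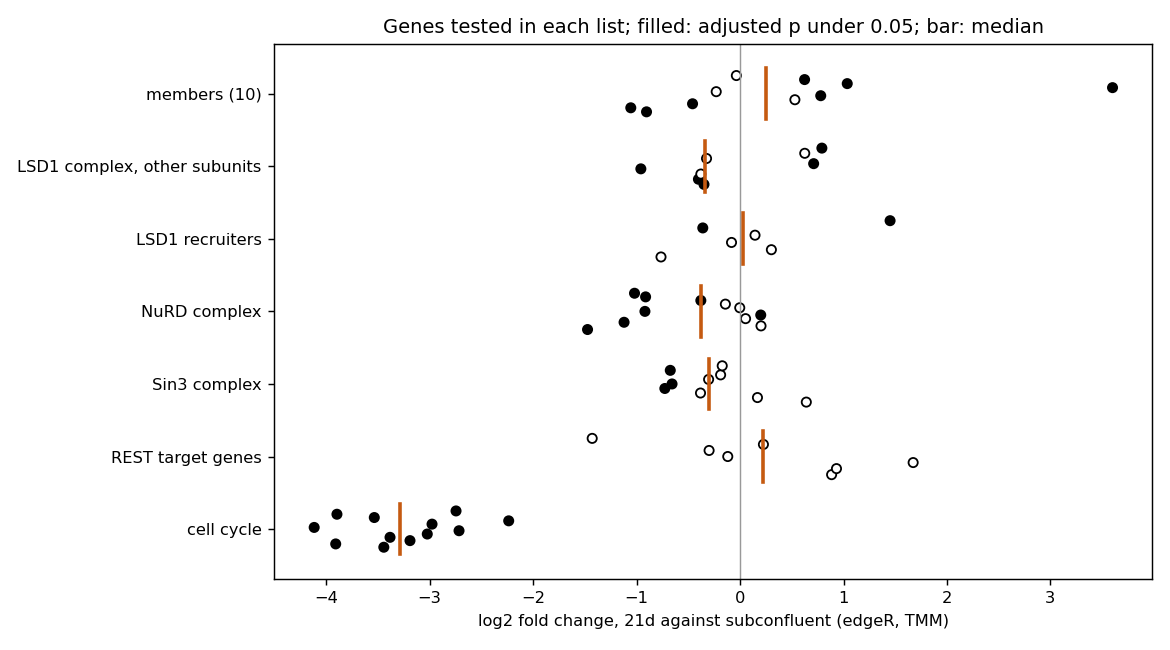
Log2 fold change in 21 d against subconfluent cells for each gene tested in the 10 members and 6 lists. Filled points have an adjusted p-value under 0.05 and bars mark medians, which lie at 0.25 for the members, -0.38 for NuRD, -0.30 for Sin3 and -3.29 for the cell cycle.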

How the data were processed

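RNA-seq of 10 MC3T3-E1 samples (5 stages, 2 replicates) was used, sequenced as paired reads of 51 bases. Raw counts per gene and RPKM values were deposited by the authors. The submitters' processing notes name FastQC, TopHat2 2.0.9, R 3.0.1 and mm10, and the counting tool, annotation and strand setting are not given in the sources used here. RPKM was found proportional to count over length in every sample, on a read number 1.44 to 1.60 times smaller than the total count. Of 14 d A and 21 d B, sequenced in 2 lanes, the merged columns were taken.

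The study's methods name no test for these data. Counts were fitted with edgeR 4.0.16 (R 4.3.3): filterByExpr by stage, TMM, and a quasi-likelihood test over all 10 samples, with Benjamini-Hochberg adjustment over 20808 genes. Every adjusted p is from this test unless another is named. The SE is the ratio of the log2 fold change to the square root of F. Ratios of RPKM were tested by exact permutation of the F statistic (Python 3.11.15), two-sided in the sense that any difference among stages counts. Single steps of ratios were not tested, since 2 against 2 samples cannot give an exact p under 0.33. Gene positions and overlaps are from GENCODE vM21 (GRCm38). Both tests were tested on simulated data. The alternatives were other scalings (DESeq2 size factors, upper quartile, library size alone), no filter, 10 counts in every sample, DESeq2 1.42.0, limma 3.58.1 on log2(RPKM + 1) and log2(RPKM + 0.1), only the groups compared, no 24 h samples, a replicate block and each replicate left out. Summed lanes for the merged columns and shares per GENCODE exonic length were added after the data were seen.

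All 10 members are named. Of each list the text names up to 4 genes with the smallest p of the F test among those called over the 5 stages, and Rest, Chd4, Mbd2 and L1cam were named after their values were seen. Of the genes this rule names, 1 is not reported here. The genes most like Kdm1a are the 5 with the highest r among genes with a symbol and a mean of at least 5 CPM. The members and lists were chosen with earlier results of these data known.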

Additional observations from a re-analysis of the deposited data

How the results depend on the processing

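In confluent against subconfluent cells 1 member was called under every alternative run. Over the 5 stages 5 to 9 were called with a replicate left out and 6 with the replicate block. In 21 d against subconfluent cells 6 to 9 were called with a replicate left out, and 3 changed more than 2-fold. In 14 d against confluent cells these values were 3 to 7, and 1. In 14 d against 24 h cells they were 1 to 7, and 1, with 1 called when only the groups compared were fitted. In 24 h against confluent cells they were 0 to 4, and 0, with 0 called when only the groups compared were fitted. In 21 d against 14 d cells they were 1 to 6, and 0, with 1 called under library size alone or no filter, 7 with only the groups compared and 6 without the 24 h samples. The share of all genes called moved too. For 21 d against 14 d cells it was 9.72% in the fit used above, 9.21% under library size alone and 5.15% with no filter. It was 30.5% with only the groups compared and 26.6% without the 24 h samples. The fit of only the groups compared called 1.61% of genes for 14 d against 24 h, beside 17.3% above. For 24 h against confluent it called 0%, beside 5.15%. Why the counts of members moved was not tested. The ratio count was between 5 and 9 with a replicate left out. From counts in place of RPKM, the share of Rcor2 was 14.2% in subconfluent cells and 64.6% at 21 d, and that of Hdac1 was 24.4% and 26.4%, since no length enters. Per GENCODE exonic length the Rcor2 shares were 25.3% and 80.9%. With a replicate left out, the Rcor2 shares were 17.9% to 18.7% and 66.2% to 67.5%, and the Hdac1 shares 29.4% to 30.1% and 31.4% to 32.6%.

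Signs turned only in values that were not called. Phf21a in 14 d against confluent cells had a log2 fold change of -0.0748 with library size alone, -0.0460 with limma on log2(RPKM + 1) and -0.0587 on log2(RPKM + 0.1). Zmym3 in 21 d against subconfluent cells was at 0.0917 with upper-quartile scaling, 0.020 with at least 10 counts in every sample and between -0.13 and 0.0042 with a replicate left out, the latter without subconfluent A.

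Library size alone moved the median of all genes (log2 fold change) to -0.20 in 14 d against confluent cells (0.03 with TMM), to -0.13 in 24 h against confluent cells and to -0.12 in 21 d against subconfluent cells (0.04 with TMM), and upper-quartile scaling to 0.17 in the latter. The share of all calls that were higher was 32.2% with library size alone and 52.5% with TMM in 14 d against confluent cells, 32.3% and 52.5% in 14 d against 24 h, 53.8% and 69.6% in 24 h against confluent, and 51.1% and 38.8% in 21 d against 14 d cells. Replicate letters did not pair the samples: the A minus B deviations of 2 stages had correlations of -0.18 to 0.10. With the replicate block the members called were 1, 1, 3, 2, 5 and 7 in the 6 comparisons, the same counts as without it.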
